A study of Homo sapiens with 9 samples.

Results

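The ABC (ATP-binding cassette) transporter genes were examined in RNA-seq of SNU-398, a mesenchymal-like hepatocellular carcinoma cell line. They were taken by name, as every gene of the count table whose symbol is ABC, a subfamily letter from A to G and a number, and pseudogenes were left out. Of 60642 gene names in the table, 46 had such a symbol and 1 of these, ABCC13, is annotated as a pseudogene, which left 45 genes: 12 of subfamily A, 9 of B, 11 of C, 4 of D, 1 of E, 3 of F and 5 of G. CFTR, TAP1 and TAP2 belong to the same superfamily under other symbols and are given separately.

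There were 9 libraries. The vector control, with its genotype labelled wild type, had 3, and 3 each came from cells overexpressing EMX1-FL and from cells overexpressing EMX1-X1. EMX1 is a homeobox transcription factor, EMX1-FL is its full-length form and EMX1-X1 is a splice form that ends in another last exon. The overexpressing cells were stable lines made with lentivirus and selected with puromycin, and the labels give the puromycin selection for the libraries of every group. The paper's legends of figures that include this RNA-seq describe the data shown as from 3 biological replicates, without saying how these were grown. Nothing in the labels says that the 3 libraries of a group came from separate cultures. The p-values therefore measure the spread between these libraries, which may be technical.

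ABC proteins bind and split ATP in paired nucleotide-binding domains, and most couple this to moving a substrate across a membrane. Subfamilies A and G carry mostly lipids and sterols, B and C carry drugs, conjugates, peptides, bile components and compounds of mitochondrial iron and haem metabolism, and D carries long-chain acyl-CoA into peroxisomes. Subfamilies E and F have no membrane domain and act at the ribosome. In hepatocytes, ABCB11, ABCB4, ABCC2 and the ABCG5-ABCG8 pair sit in the canalicular membrane and make bile, and ABCB1, ABCC1 and ABCG2 are the exporters best known for removing cytotoxic drugs from tumour cells.

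Total counts per library were between 21562703 and 25197970 read pairs assigned to genes, and a count of 3, the upper limit that a count of 0 allows, was worth between 0.121 and 0.139 CPM (counts per 1000000 on the normalized library sizes, counting error only). EMX1 itself counted 218, 229 and 313 in the vector control libraries, 5660, 3202 and 3145 in EMX1-FL and 3479, 7083 and 7133 in EMX1-X1, so that all 6 overexpressing libraries lay far above the control. The first principal component of the 9 libraries, 39.6% of the variance, did not follow the groups. It set vector control 1 and 2, EMX1-FL 2 and 3 and EMX1-X1 1 (cluster A below) apart from vector control 3, EMX1-FL 1 and EMX1-X1 2 and 3 (cluster B below). Within each group the EMX1 count was also higher in the cluster B libraries, so within groups the EMX1 level and the cluster cannot be told apart. Across groups they did not go together. Cluster A held vector control libraries with 218 and 229 EMX1 counts and overexpressing libraries with 3202, 3145 and 3479. Of 9 liver markers only ALB passed the filter on low counts, with 15, 10 and 18 counts in the vector control libraries, 22, 39 and 53 in EMX1-FL and 20, 38 and 38 in EMX1-X1. APOB, TTR, AFP, KRT8 and KRT18 had at most 2 counts, HNF4A 1, SERPINA1 5 and APOA1 9, so the defining genes of hepatocytes were absent or nearly so, while the mesenchymal VIM had between 22873 and 37055 counts. Of 8 markers of other cells, 3 passed the filter. PTPRC, CD68 and KRT19 had at most 4 counts, PECAM1 8 and HBB 22. COL1A1 was higher in EMX1-X1, with counts of 700, 795 and 787 in the vector control libraries, 756, 548 and 559 in EMX1-FL and 918, 1444 and 1396 in EMX1-X1 (log2 fold change 0.67 ± 0.22, SE, edgeR adjusted p = 0.534). PDGFRB was lower in EMX1-X1, at -0.57 ± 0.43, and EPCAM higher, at 0.40 ± 0.28. For EMX1-FL against vector control the values were -0.24 for COL1A1, -0.74 for PDGFRB and 0.55 for EPCAM. Their part in the results below was not tested.

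The windows in front of 3 of the ABC genes are shown because the results turn on them: ABCA13 and ABCG4 are the genes whose EMX1-FL libraries lay above all vector control libraries, and ABCC2 is the canalicular pump whose EMX1-FL libraries lay above all EMX1-X1 libraries. Each is the 250 bases before the start of transcription, 5′ to 3′ on the gene's strand, from RefSeq on GRCh38.p14, at chr7:48171208-48171457 (plus strand), chr11:119148802-119149051 (plus strand) and chr10:99782390-99782639 (plus strand). Capitals mark TAAT or its reverse complement ATTA, the core letters that homeodomains are known to bind, searched on both strands. For ABCG4 the window of the first of 2 starts is shown.
ABCA13: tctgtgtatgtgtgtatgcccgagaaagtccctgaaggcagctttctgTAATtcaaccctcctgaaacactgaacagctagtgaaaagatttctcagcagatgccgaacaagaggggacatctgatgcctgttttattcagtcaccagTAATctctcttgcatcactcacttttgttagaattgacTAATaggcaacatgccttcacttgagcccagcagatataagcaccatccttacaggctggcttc
ABCG4: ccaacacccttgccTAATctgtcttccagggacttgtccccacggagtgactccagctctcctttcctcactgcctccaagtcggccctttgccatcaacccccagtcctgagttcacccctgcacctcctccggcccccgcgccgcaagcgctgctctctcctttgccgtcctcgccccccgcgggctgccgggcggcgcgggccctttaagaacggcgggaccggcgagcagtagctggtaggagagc
ABCC2: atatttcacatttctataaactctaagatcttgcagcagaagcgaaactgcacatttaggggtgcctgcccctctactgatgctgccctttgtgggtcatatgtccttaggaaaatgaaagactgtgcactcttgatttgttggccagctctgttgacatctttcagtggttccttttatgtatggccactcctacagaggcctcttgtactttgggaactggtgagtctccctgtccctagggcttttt
The ABCA13 window held 3 matches, the ABCG4 window shown 1 and the ABCC2 window 0. The window of the second ABCG4 start, not shown, held 0. Of 53 such windows found for 35 of the 45 genes, 25 (47.2%) held the letters, against 47.4% of 35116 windows of all genes. ABC genes therefore carried these 4-letter matches as often as promoters in general, and a match is only a match of letters.

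At baseline, the 45 genes ranged from 0 to 155 TPM (transcripts per 1000000, a level per transcript length) in the vector control. The mean was above 1 TPM for 22 genes, above 10 TPM for 16 and above 100 TPM for 2, while 2 genes, ABCA6 and ABCA10, had no count in any of the 9 libraries. The sum over the family was 733 ± 47.3 TPM (SD, n = 3), and the 3 F genes, 300 ± 21.2 TPM, made up 41.1% ± 5.51 of it. Subfamily D followed with 114 ± 23.7 TPM, B with 101 ± 10.6, C with 85.8 ± 5.60, E with 74.3 ± 22.7, A with 55.6 ± 3.53 and G with 2.19 ± 0.304. In SNU-398, the ABC transcripts were thus mainly those of genes that work inside the cell, at ribosomes, mitochondria and peroxisomes.

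**Figure D1:**
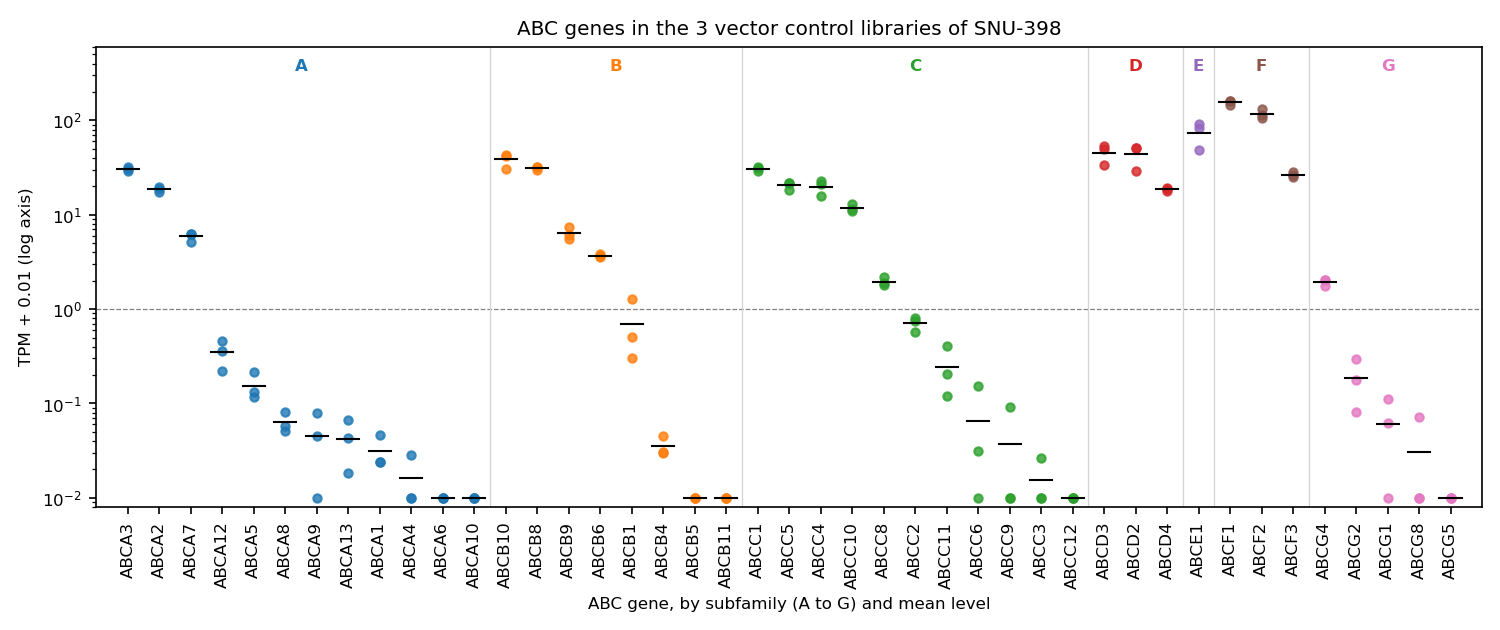
TPM plus 0.01 on a log axis for 43 ABC genes in the 3 vector control libraries (points) with their mean (bar), grouped by subfamily A to G; the dashed line is at 1 TPM. All genes of D, E and F plotted lie above the line, and so do 3 of 12 A genes, 4 of 8 B genes, 5 of 11 C genes and 1 of 5 G genes.

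In these bulk libraries, fewer cells that express a gene and less of its RNA per cell cannot be told apart. The soluble ABCF1, ABCF2 and ABCE1 led the order, while the soluble ABCF3 lay lower. ABCF1, which assists translation initiation, stood at 155 ± 8.52 TPM in the vector control, ABCF2 at 118 ± 13 and ABCF3 at 26.7 ± 1.53. ABCE1, which recycles ribosomes after termination, stood at 74.3 ± 22.7 TPM, where the 3 libraries spread from 48.6 to 91.4 TPM. ABCF1 was above ABCF2 in each vector control library. ABCE1 was also above the next genes, ABCD3 and ABCD2, in each of them, although its range over the libraries overlapped theirs. ABCF2 has processed copies elsewhere in the genome, so reads from them may have been lost or misplaced in counting, and its level is uncertain to that extent.

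ABCD3 and ABCD2 of the peroxisomal subfamily D came next. ABCD3, the major peroxisomal membrane transporter for branched and long-chain acyl-CoA, stood at 45.6 ± 10.6 TPM, and ABCD2, a carrier of very long-chain acyl-CoA, at 43.8 ± 13 TPM. These levels differed by less than their spread. ABCD4, which takes part in the lysosomal release of cobalamin, was at 18.6 ± 0.586 TPM, and the lysosomal peptide transporter ABCB9 at 6.33 ± 0.997. For ABCB9, 24.5% of the exonic sequence also belongs to neighbouring genes, so its level is uncertain, as is that of ABCB10, which has near-identical copies.

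The mitochondrial B genes were present. ABCB10, needed for haem synthesis in erythroid cells, stood at 38.6 ± 7.09 TPM and ABCB8, a subunit of a mitochondrial potassium channel, at 31.5 ± 1.30. ABCB6, linked to porphyrin transport, was lowest at 3.69 ± 0.142 TPM, where 54.6% of the exonic sequence also belongs to the gene AC068946.2, which can keep read pairs from being counted. Among the A genes, ABCA3, a lamellar body lipid transporter of lung epithelium, stood at 30.6 ± 1.72 TPM, ABCA2, an endolysosomal lipid transporter, at 18.6 ± 1.15 and ABCA7, a phospholipid transporter, at 5.89 ± 0.692. The neighbours ABCA5, ABCA6, ABCA8, ABCA9 and ABCA10 on chromosome 17 were all below 0.15 TPM. ABCC8, the sulfonylurea receptor of the pancreatic potassium channel, was at 1.94 ± 0.205 TPM, and its channel partner KCNJ11 at 9.52 ± 1.48 TPM. Of the remaining genes, ABCA12, a lipid transporter of skin, was at 0.337 ± 0.122 TPM and ABCC11 at 0.233 ± 0.146, ABCC6 and ABCC9 were below 0.1 TPM, and ABCB5 and ABCC12 had no count in the vector control.

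Among the 8 drug efflux genes, ABCC1, the multidrug exporter of glutathione conjugates, was highest at 30.7 ± 1.59 TPM. ABCC5 and ABCC4, which export cyclic nucleotides and nucleotide analogues, were at 20.6 ± 2.04 and 19.8 ± 3.59 TPM and did not differ beyond their spread, and ABCC10 was at 11.7 ± 1.05. ABCB1, the P-glycoprotein, was at 0.683 ± 0.511 TPM, ABCC2 at 0.697 ± 0.118 and ABCG2, the breast cancer resistance protein, at 0.174 ± 0.106. ABCC3 had counts of 0, 1 and 0 in the vector control. ABCC1, ABCC4, ABCC5 and ABCC10 thus stood far above ABCB1, ABCC2, ABCC3 and ABCG2 in these cells: the lowest library of ABCC10 had 10.9 TPM, against 1.34 TPM in the highest library of ABCB1 and 0.64 TPM in that of ABCG2.

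Of the 5 genes listed as exporters of bile components from hepatocytes, by the canalicular or the basolateral side, 3 were at or near the floor. ABCB11, the bile salt export pump, had 1 count in 1 library, EMX1-FL 2, and 0 in the other 8. ABCB4, the phosphatidylcholine floppase, had between 0 and 5 counts, and ABCC3, the basolateral conjugate pump, between 0 and 5. The other members of this list, ABCC2 and ABCC4, passed the filter on low counts. Of the sterol exporters 4 were as low: ABCA1, the cholesterol exporter to apolipoprotein A-I, had 0 to 4 counts, ABCG1 0 to 5, ABCG5 0 to 3 and ABCG8 0 to 4. ABCG4, a sterol exporter known from brain, was the exception at 1.94 ± 0.153 TPM. In the 7 genes of these lists that did not pass the filter, no difference between groups was detectable at this depth.

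For the comparisons, 29 of the 45 genes passed the filter: 6 of A, 6 of B, 7 of C, 4 of D, the E gene, 3 of F and 2 of G. The other 16 had at most 14 counts in any library, and 5 genes had no more than 3 counts in every library. Among the untested genes ABCA4, the retinal flippase, had 0, 1 and 0 counts in the control libraries, 13, 3 and 0 in EMX1-FL and 0, 7 and 4 in EMX1-X1. ABCA8 had 5, 3 and 4, then 2, 1 and 12, then 14, 7 and 0, and both genes overlapped between the groups. Expression was compared with edgeR's quasi-likelihood F test, and p-values were adjusted by the Benjamini-Hochberg method across the 18574 genes that passed the filter. The comparisons with the vector control share its 3 libraries.

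Over all 9 libraries, no ABC gene passed an adjusted p of 0.05 in any comparison with edgeR, and none did with DESeq2 or limma on TPM. The smallest adjusted p among them was 0.572 for EMX1-FL against vector control, 0.575 for EMX1-X1 against vector control and 0.611 for EMX1-FL against EMX1-X1. Over all genes, the share past the adjusted threshold was 0.07% for EMX1-FL against vector control, 0.00538% for EMX1-X1 against vector control and 0% for EMX1-FL against EMX1-X1. The 95% interval of the log2 fold change lay within 1 unit on either side of 0 for 22 of the 29 genes in the first comparison, 18 in the second and 17 in the third. For the other genes the interval reached past a log2 fold change of 1 in at least 1 direction.

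**Figure D2:**
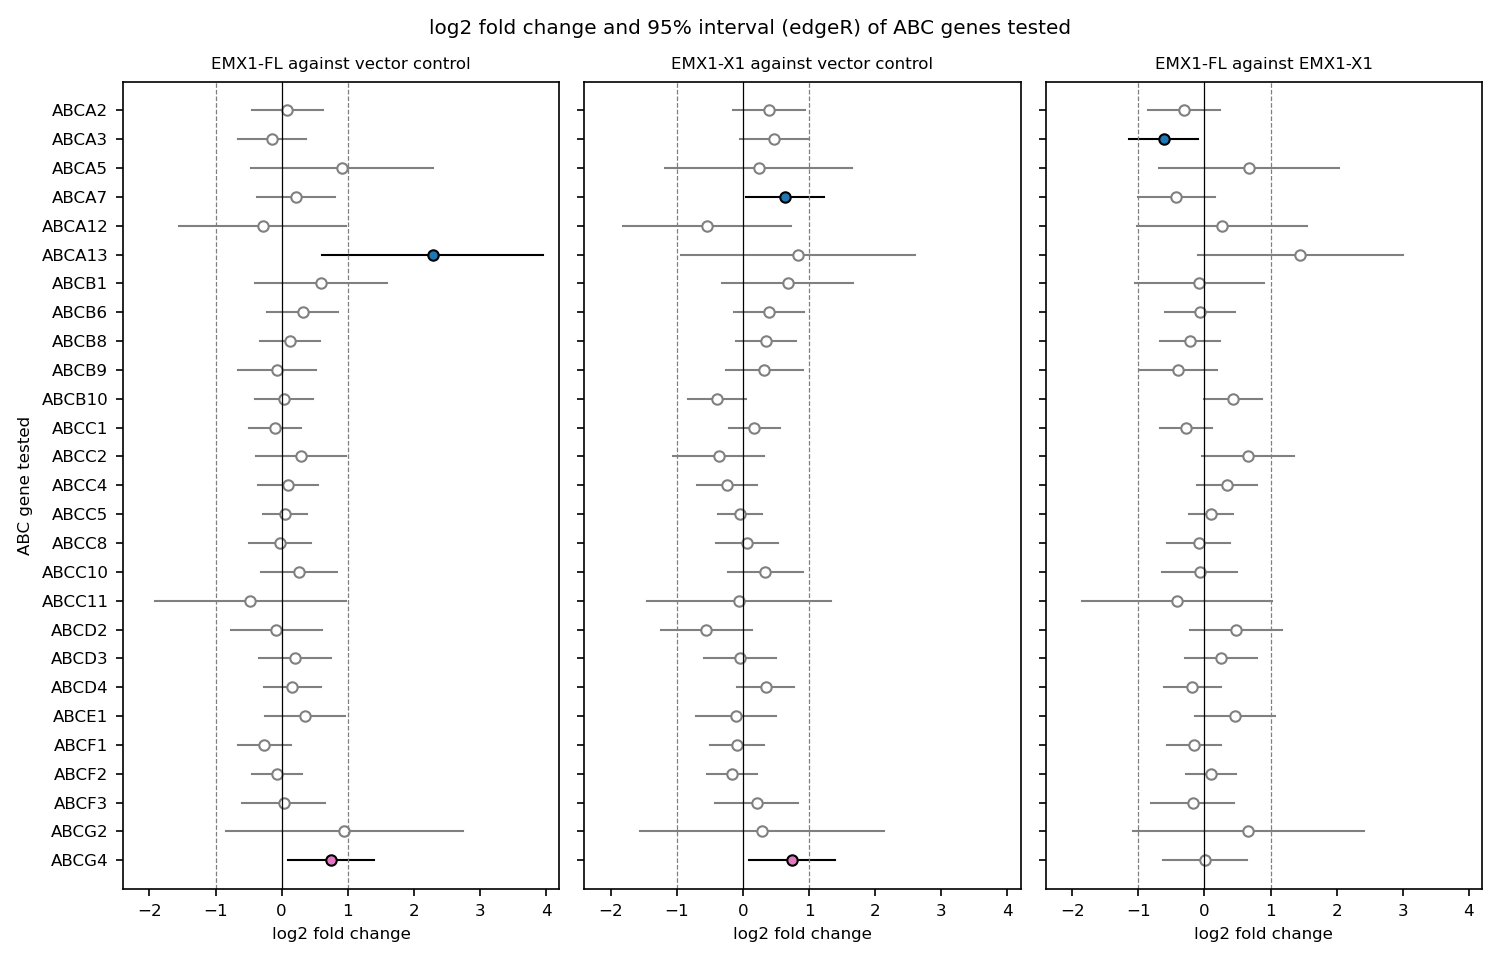
Log2 fold change (point) and 95% interval (line) from edgeR for 27 of the 29 ABC genes tested, in each of the 3 comparisons; filled points and black lines have an unadjusted p under 0.05, and dashed lines mark a log2 fold change of 1 in either direction. ABCA13 and ABCG4 are filled for EMX1-FL against vector control, ABCG4 and ABCA7 for EMX1-X1 against vector control, and ABCA3 for EMX1-FL against EMX1-X1.

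In EMX1-FL against vector control, 2 of the 29 genes, ABCA13 and ABCG4, had an unadjusted p under 0.05, next to 5.8% of all genes tested. When the log2 fold change also had to be 1 or more in size, 1 gene was left, ABCA13, next to 2.42% of all genes. The EMX1-FL and vector control libraries did not overlap in CPM for 2 genes, the same ABCA13 and ABCG4, next to 10.5% of all genes. These shares are near those of all genes or below them. The count at an unadjusted p under 0.05 was 1 without vector control 1 or 3 or EMX1-FL 2 or 3, 2 without vector control 2, where ABCB1 took the place of ABCG4, and 7 without EMX1-FL 1. Over all genes the share was between 4.23% and 5.19% in the fits with 1 or 2 ABC genes just named and 16.4% without EMX1-FL 1. The log2 fold change was positive for 19 of the 29 and negative for 10, with a median of 0.09 against 0.04 over all genes.

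Positions of genes are those of the count table on GRCh38. ABCA13 (chr7:48171458-48647497), a very large lipid transporter, counted 1, 4 and 8 in the vector control libraries, 20, 35 and 8 in EMX1-FL and 9, 12 and 3 in EMX1-X1. EMX1-FL 3 and vector control 3 had the same count, and only the library sizes set them apart. The log2 fold change was 2.28 ± 0.76 (SE) for EMX1-FL against vector control (adjusted p = 0.572), and without EMX1-FL 2 it was 1.72 with an unadjusted p over 0.05. The gene did not pass the filter when just the 6 libraries compared were fitted or when 10 counts were required in every library, and limma on log2(TPM + 1) gave a difference of 0.19 with an unadjusted p over 0.05. The difference was positive among the cluster A libraries, at 2.21, and among those of cluster B, at 1.23. At 0.0325 ± 0.0240 TPM in control cells and 0.178 ± 0.106 TPM in EMX1-FL, the transcript was scarce in both groups.

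ABCG4 (chr11:119149052-119162653) counted 79, 82 and 82 in the vector control libraries, 137, 97 and 157 in EMX1-FL and 86, 162 and 173 in EMX1-X1. The vector control libraries lay close together, EMX1-X1 1 lay beside them at 3.58 CPM, and the other overexpressing libraries were higher. Its log2 fold change was 0.75 ± 0.30 (SE) for EMX1-FL (adjusted p = 0.783) and 0.74 ± 0.30 for EMX1-X1 (adjusted p = 0.575), both against the same vector control libraries. The unadjusted p for EMX1-FL, under 0.05 over all libraries, was over it without vector control 1, 2 or 3 or EMX1-FL 3, when the log2 fold change was between 0.56 and 0.76. For EMX1-X1 the same held without vector control 1, 2 or 3, EMX1-X1 2 or EMX1-X1 3, with values between 0.57 and 0.75. EMX1-FL and EMX1-X1 differed by 0.01 (95% interval -0.63 to 0.65). Against the vector control library or libraries of the same cluster, EMX1-FL was higher by 0.63 in cluster A and 0.83 in cluster B, and EMX1-X1 by 0.04 and 1.00. With the cluster as a term the EMX1-X1 value was 0.60 (adjusted p = 0.401), with an unadjusted p over 0.05.

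In EMX1-X1 against vector control, 2 of the 29 genes had an unadjusted p under 0.05, ABCG4 and ABCA7, next to 8.11% of all genes tested. None reached an absolute log2 fold change of 1 as well, next to 2.5% of all genes. The groups did not overlap for 3 genes, ABCA3, ABCA7 and ABCB6, all higher in EMX1-X1, next to 14.7% of all genes. Of the 29, 17 had a positive and 12 a negative log2 fold change, with a median of 0.21 against 0.01 over all genes. With the cluster of the libraries as a term in the fit, the median over the ABC genes was 0.11. The count at an unadjusted p under 0.05 was 0 without vector control 1, EMX1-X1 2 or EMX1-X1 3 and 1 without vector control 2. In these fits the share over all genes also fell, to between 3.35% and 5.16%. Without vector control 3 the count was 2, but of ABCB10 and ABCD2, next to 7.22% of all genes. It was 6 without EMX1-FL 1 and 10 without EMX1-X1 1, the cluster A library of its group. In the last 2 of these fits the share over all genes rose, to 14.6% and 17.1%. With the cluster as a term the count was again 2, next to 12.6% of all genes, but of other genes: ABCB10 and ABCD2, which had log2 fold changes of -0.28 (adjusted p = 0.372) and -0.30 (adjusted p = 0.291), came under an unadjusted p of 0.05, and ABCG4 and ABCA7 were over it.

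ABCA7 (chr19:1039997-1065572), a phospholipid transporter known from genetic studies of Alzheimer's disease, counted 379, 387 and 363 in the vector control libraries, 554, 307 and 396 in EMX1-FL and 408, 757 and 655 in EMX1-X1. EMX1-X1 2 and 3 were the highest libraries, and EMX1-FL 1 was the next. The log2 fold change for EMX1-X1 was 0.64 ± 0.27 (SE; adjusted p = 0.584), and the unadjusted p was over 0.05 without vector control 1, 2 or 3 or without EMX1-X1 2 or 3, with values between 0.44 and 0.66. It was 0.04 within cluster A and 0.94 within cluster B. The highest 3 libraries were all of cluster B, whose part in the difference was not tested apart from these values and the fit with the cluster as a term, which gave 0.44 and an unadjusted p over 0.05.

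ABCB6 counted 126, 121 and 139 in the vector control libraries, 106, 157 and 199 in EMX1-FL and 180, 169 and 174 in EMX1-X1. Its EMX1-X1 libraries lay close together above the vector control, with a log2 fold change of 0.39 ± 0.24 (SE; adjusted p = 0.671), 0.48 within cluster A and 0.29 within cluster B. Over the mitochondrial list, 2 of 4 genes were higher and 2 lower in EMX1-X1. None of the 4 had an unadjusted p under 0.05, next to 8.11% of all genes. ABCB10 had counts of 1135, 1182 and 967 in the vector control libraries, 881, 1360 and 1015 in EMX1-FL and 977, 856 and 748 in EMX1-X1, a log2 fold change of -0.40 ± 0.20 for EMX1-X1 (adjusted p = 0.629).

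In EMX1-FL against EMX1-X1, 1 of the 29 genes, ABCA3, had an unadjusted p under 0.05, next to 7.63% of all genes tested. None reached an absolute log2 fold change of 1 as well, next to 1.42% of all genes. The groups did not overlap for 1 gene, ABCC2, next to 8.38% of all genes. Of the 29 log2 fold changes, 14 were positive and 15 negative, with a median of -0.07 against 0.02 over all genes. The count at an unadjusted p under 0.05 was 12 without EMX1-FL 1, 10 without EMX1-X1 1 and 0 without EMX1-FL 2, EMX1-X1 2 or EMX1-X1 3. The share over all genes was 34.7% and 20.1% in the first and second of these fits and between 2.03% and 2.83% in the others.

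ABCA3 (chr16:2275881-2340746) counted 1582, 1534 and 1672 in the vector control libraries, 1870, 1106 and 1185 in EMX1-FL and 1667, 2645 and 2559 in EMX1-X1. EMX1-FL 2 and 3 were the lowest libraries, EMX1-X1 2 and 3 the highest, and the vector control libraries lay close together between them. EMX1-FL was lower than EMX1-X1 by a log2 fold change of -0.62 ± 0.24 (SE; adjusted p = 0.611), -0.46 within cluster A and -0.36 within cluster B. Without EMX1-FL 1, the cluster B library of its group, the value was -0.88 and the adjusted p 0.0457, the only adjusted p under 0.05 among ABC genes when 1 library was left out, in a fit where 6.05% of all genes had one. Without EMX1-FL 2 or 3 or EMX1-X1 2 or 3, the unadjusted p was over 0.05 and the value between -0.46 and -0.55. With the cluster as a term the value was -0.47 ± 0.14 (adjusted p = 0.225), with an unadjusted p under 0.05. In that fit 12.9% of all genes had such an unadjusted p. EMX1-X1 against vector control gave 0.47 ± 0.24 (adjusted p = 0.625) and EMX1-FL against vector control -0.14 ± 0.24 (adjusted p = 0.997).

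**Figure D3:**
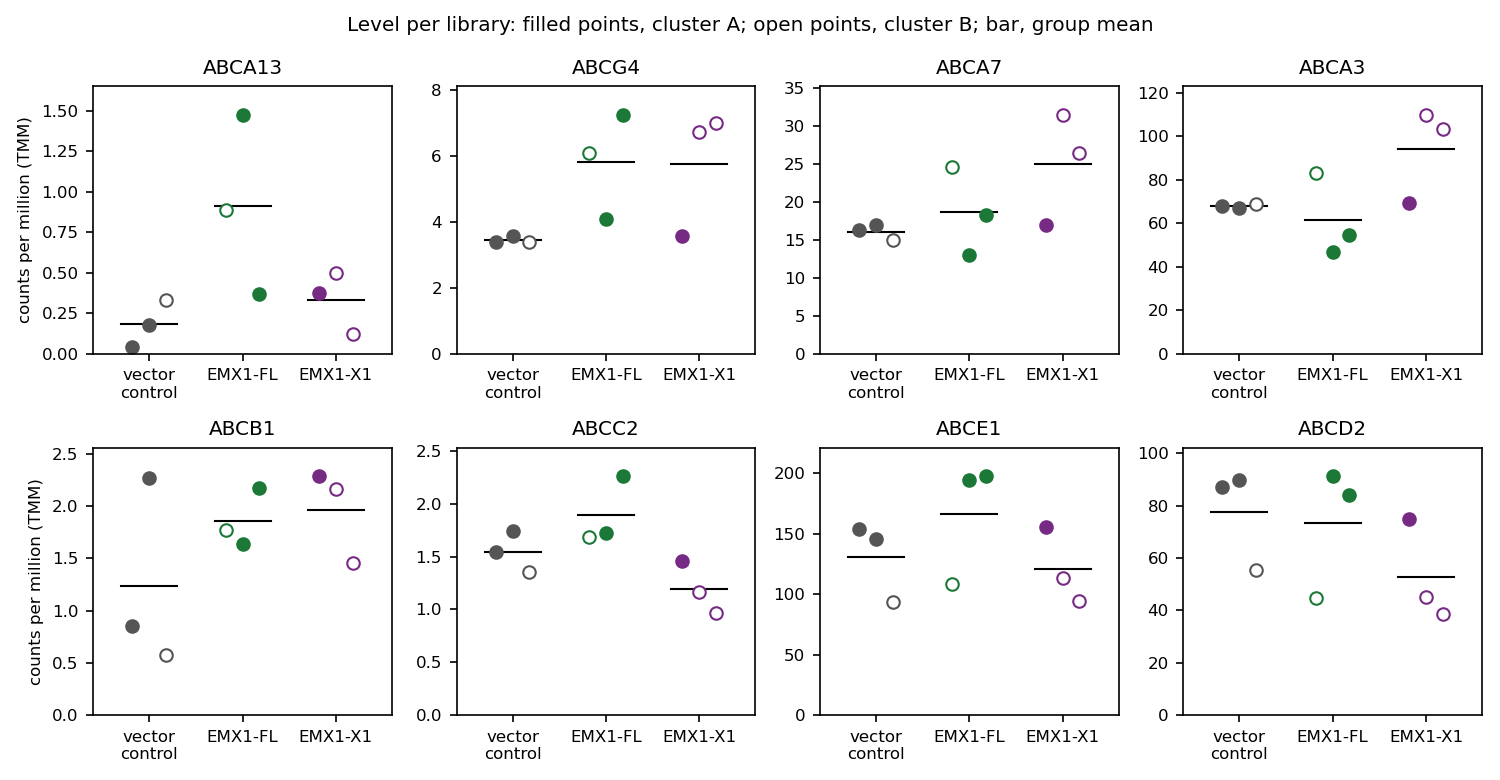
CPM (TMM-normalized) in each library for 8 ABC genes by group, with the group mean as a bar; filled points are libraries of cluster A and open points those of cluster B. ABCE1 and ABCD2 are lower in the open points of every group, ABCA7 and ABCA3 are higher in the open points of EMX1-FL and EMX1-X1, and ABCA13 and ABCG4 in EMX1-FL lie above the vector control in every library.

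None of the 7 drug efflux genes tested had an unadjusted p under 0.05 in any comparison. Over all genes the shares were 5.8% for EMX1-FL and 8.11% for EMX1-X1, both against vector control, and 7.63% between the isoforms. In EMX1-FL, 6 of the 7 were higher and 1 lower than in the vector control, between -0.10 and 0.95 on the log2 scale. Their median was 0.26, against 0.04 over all genes. In EMX1-X1, 4 were higher and 3 lower, between -0.37 and 0.67, with a median of 0.17 against 0.01. The precision differed widely between the 7 genes, with an interval for EMX1-FL of 0.66 log2 units in all for ABCC5 and 3.59 for ABCG2.

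ABCB1 (chr7:87503017-87713323) counted 20, 52 and 14 in the vector control libraries, 40, 39 and 47 in EMX1-FL and 55, 52 and 36 in EMX1-X1. Vector control 2 was as high as the overexpressing libraries and the other two vector control libraries were below all of them. EMX1-FL gave a log2 fold change of 0.59 (95% interval -0.41 to 1.60; adjusted p = 0.997) and EMX1-X1 one of 0.67 (-0.32 to 1.67; adjusted p = 0.691). Without vector control 2 these were 1.36 (adjusted p = 0.787) and 1.43 (adjusted p = 0.988), so 1 control library decided on which side of 0.05 the unadjusted p fell.

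ABCC1 (chr16:15949577-16143074) counted 1514, 1406 and 1776 in the vector control libraries, 1492, 1427 and 1280 in EMX1-FL and 1419, 1961 and 2084 in EMX1-X1. Its log2 fold change was -0.10 (95% interval -0.50 to 0.29; adjusted p = 0.997) for EMX1-FL and 0.17 (-0.22 to 0.57; adjusted p = 0.782) for EMX1-X1. ABCC5 counted 1569, 1577 and 1544, then 1698, 1534 and 1444, then 1578, 1499 and 1612, with 0.05 (-0.28 to 0.38; adjusted p = 0.997) and -0.05 (-0.38 to 0.28; adjusted p = 0.929). It was the steadiest of the drug exporters across the libraries.

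ABCC4 counted 1141, 1250 and 1009 in the vector control libraries, 948, 1515 and 1065 in EMX1-FL and 1162, 948 and 856 in EMX1-X1. The log2 fold change was 0.10 (95% interval -0.36 to 0.55; adjusted p = 0.997) for EMX1-FL and -0.25 (-0.70 to 0.21; adjusted p = 0.74) for EMX1-X1. ABCC10 counted 552, 669 and 685, then 1019, 639 and 546, then 581, 974 and 938, with 0.26 (-0.31 to 0.84; adjusted p = 0.997) and 0.34 (-0.23 to 0.91; adjusted p = 0.721). In the overexpressing groups, the cluster B libraries had the lower ABCC4 counts and the higher ABCC10 counts.

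ABCC2 (chr10:99782640-99852594) counted 36, 40 and 33 in the vector control libraries, 38, 41 and 49 in EMX1-FL and 35, 28 and 24 in EMX1-X1. EMX1-FL was higher than EMX1-X1 in every library, by a log2 fold change of 0.66 ± 0.32 (SE; adjusted p = 0.611), with the mean of the vector control between them. The difference was 0.42 within cluster A and 0.63 within cluster B. ABCG2 counted 10, 6 and 3, then 22, 11 and 3, then 7, 15 and 2, too few to bound its change below a log2 fold change of 2.74 for EMX1-FL or 2.13 for EMX1-X1.

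ABCE1 counted 3595, 3333 and 2260 in the vector control libraries, 2437, 4618 and 4280 in EMX1-FL and 3737, 2736 and 2340 in EMX1-X1, and ABCD2 counted 2034, 2063 and 1347, then 1008, 2168 and 1822, then 1798, 1083 and 953. The lower counts of both genes came from the cluster B libraries of each group. Within groups, cluster B was lower than cluster A by 0.64 log2 CPM for ABCE1, 0.75 for ABCD2 and 0.87 for ABCA12 and higher by 0.53 for ABCF3 and for ABCB9. This difference followed the GC content of each gene's longest transcript across the 29 ABC genes (Pearson r = 0.82, Spearman rho = 0.83), as it did across 17752 genes with a GC value (0.76 and 0.79). Genes are not independent replicates and share the libraries, so these are descriptions.

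**Figure D4:**
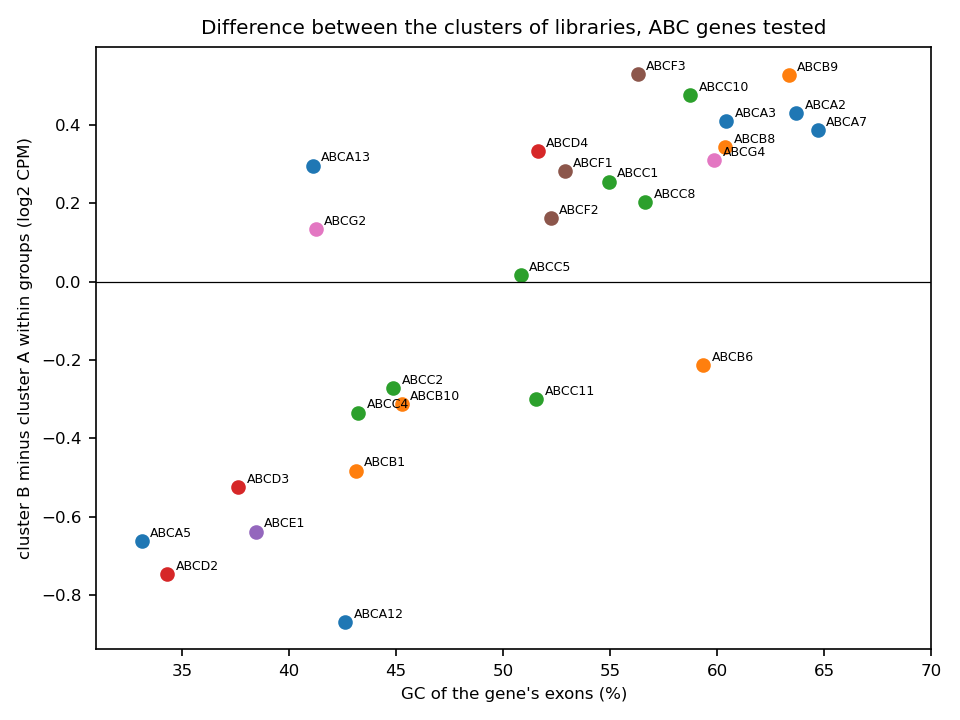
Difference between cluster B and cluster A within groups (log2 CPM) against GC content (%) for 27 of the 29 ABC genes tested, coloured by subfamily. The GC content is that of the gene's longest transcript, although the axis names the gene's exons. GC-poor genes such as ABCD2 and ABCA5 are lower in cluster B and GC-rich genes such as ABCF3 and ABCB9 are higher.

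The cluster touched the counts of genes called. With the cluster as a term, EMX1-FL against vector control had 4 ABC genes with an unadjusted p under 0.05, ABCA13, ABCG4, ABCE1 and ABCF1, next to 15.1% of all genes and none of them past the adjusted threshold. With only the 5 libraries of cluster A, chosen after seeing the data and leaving 2 vector control and 2 EMX1-FL libraries, there were 10 of 30 tested, next to 25.2% of all genes, and 4 of them had an adjusted p under 0.05 (edgeR, over all genes). Their log2 fold changes were 0.39 for ABCE1 (adjusted p = 0.00928), 0.31 for ABCD3 (adjusted p = 0.0423), -0.38 for ABCF1 (adjusted p = 0.0173) and -0.41 for ABCA3 (adjusted p = 0.0211). In the same fit 10.5% of all genes passed the adjusted threshold, and the clusters had been read from these libraries. In the other cluster vector control 3 and EMX1-FL 1 differed by 0.21 for ABCE1, -0.13 for ABCD3, -0.07 for ABCF1 and 0.27 for ABCA3, with 1 library a side and no test.

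A further 12 genes tested were ABCA2, ABCA5, ABCA12, ABCB8, ABCB9, ABCC8, ABCC11, ABCD3, ABCD4 and the 3 F genes. Over all 9 libraries none of them had an unadjusted p under 0.05 in any comparison, next to 5.8%, 8.11% and 7.63% of all genes. For EMX1-FL against vector control the log2 fold changes of the 12 ran from -0.47 (ABCC11) to 0.91 (ABCA5). For EMX1-X1 against vector control they ran from -0.55 (ABCA12) to 0.39 (ABCA2). Of the 5 peroxisomal and lysosomal genes, 2 were higher in EMX1-FL and 3 in EMX1-X1, and of the 4 soluble genes 2 and 1. Among the abundant genes, ABCF2 had log2 fold changes of -0.06 ± 0.17 (SE) and -0.17 ± 0.17.

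The summed levels of the subfamilies are given as a description, with no test. The A genes together were at 55.6 ± 3.53 TPM in control cells, 58.8 ± 16.5 in EMX1-FL and 82.1 ± 20.3 in EMX1-X1. ABCA3, the highest of them, was at 33.5 TPM in EMX1-X1 1, of cluster A, against 53.7 and 49.2 in EMX1-X1 2 and 3. The G genes were at 2.19 ± 0.304, 3.96 ± 1.07 and 3.83 ± 1.13 TPM, nearly all of it ABCG4. ABCG4 was at 2.17 TPM in EMX1-X1 1 and at 4.12 and 4.16 in EMX1-X1 2 and 3. In EMX1-FL its highest library was EMX1-FL 3, of cluster A. The part of the cluster in these sums was not tested. The F genes were at 300 ± 21.2, 289 and 303 TPM on average, and the family at 733 ± 47.3, 789 ± 3.60 and 781 ± 21.5.

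Of 20 partner genes, which carry the same substrates or complete the same complexes, 13 were tested. In EMX1-FL against vector control 5 were higher and 8 lower, and 2 had an unadjusted p under 0.05, both higher, where 5.8% of all genes had one. ATP8B1, the canalicular aminophospholipid flippase, counted 38, 43 and 41, then 75, 67 and 92 in EMX1-FL and 56, 40 and 65 in EMX1-X1, a log2 fold change of 1.00 ± 0.29 for EMX1-FL (SE; adjusted p = 0.361). MYLIP, the ligase that removes the LDL receptor, was higher by 0.49 ± 0.20 (adjusted p = 0.803). In EMX1-X1 against vector control none of the 13 had an unadjusted p under 0.05, next to 8.11% of all genes. Between EMX1-FL and EMX1-X1, ATP8B1 alone had such a p, higher in EMX1-FL, next to 7.63% of all genes. Among the other uptake and bile partners, SLC51A, a subunit of the basolateral bile acid exporter, had between 21 and 63 counts, SLCO1B1, SLCO1B3 and SLC51B were at 0 in every library and SLC10A1 had at most 4 counts.

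Of 20 regulators of ABC genes, 15 were tested. In EMX1-FL against vector control 3 were higher at an unadjusted p under 0.05, AHR, PPARG and PPARD, and NR1I3 was lower, next to 5.8% of all genes. In EMX1-X1 against vector control 4 were higher, AHR, PPARG, PPARD and RXRA, and PPARA was lower, next to 8.11% of all genes. In EMX1-FL against EMX1-X1 4 were lower, RXRA, NR1I3, SREBF1 and SREBF2, next to 7.63% of all genes. None of these passed the adjusted threshold. AHR, the xenobiotic-sensing receptor, counted 24, 27 and 24 in the vector control libraries, 39, 71 and 83 in EMX1-FL and 54, 55 and 44 in EMX1-X1, above the vector control in every overexpressing library, with a log2 fold change of 1.42 ± 0.34 for EMX1-FL (SE; adjusted p = 0.216) and 0.98 ± 0.34 for EMX1-X1 (adjusted p = 0.548). RXRA, the common partner of the sterol and bile acid receptors, counted 340, 374 and 424, then 504, 346 and 289, then 464, 696 and 757, 0.70 ± 0.24 higher in EMX1-X1 (adjusted p = 0.541), with its highest libraries in cluster B. The bile acid receptor NR1H4 was at 0 in every library, and NR1I2 and HNF4A had at most 1 count. The sterol receptors NR1H3 and NR1H2 were present at 7.13 ± 2.07 and 10.6 ± 0.844 TPM in the vector control, while ABCA1 and ABCG1, which they are known to induce, were near 0.

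Of the superfamily members with other symbols, the antigen peptide transporters TAP1 and TAP2 stood at 18.6 ± 0.493 and 22.7 ± 1.13 TPM in the vector control, and the chloride channel CFTR had at most 7 counts. TAP1 had a log2 fold change of -0.05 ± 0.24 for EMX1-FL (SE; adjusted p = 0.997) and 0.36 ± 0.24 for EMX1-X1 (adjusted p = 0.689), and TAP2 -0.02 ± 0.17 (adjusted p = 0.999) and -0.20 ± 0.17 (adjusted p = 0.731). Neither had an unadjusted p under 0.05 in any comparison, next to 5.8%, 8.11% and 7.63% of all genes.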

How the data were processed

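RNA-seq counts of 9 SNU-398 libraries were analysed, with the groups of the labels. The authors deposited a table of raw read pair counts per gene name, which its header says was made with featureCounts 2.0.1 on exons of Ensembl 99 (GRCh38) with no strand option. The labels list bcl2fastq 2.1.7, fastp, STAR and featureCounts 2.0.6. A second table that the authors deposited holds log2(TPM + 1), a log2 scale that was turned back to TPM here. By default, reads that fit several genes are not counted, which lowers genes with near-identical copies or shared exons.

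Counts were tested with edgeR 4.0.16 in R 4.3.3 (TMM, filterByExpr, quasi-likelihood F test, group as the only term, 9 libraries, 18574 genes) with Benjamini-Hochberg adjustment. Intervals are 95%. Alternatives also used DESeq2 1.42.0 and limma 3.58.1. Exon positions come from the count table, and gene types and GC content, that of the longest transcript per gene name, from GENCODE 29. Same-numbered libraries were not more alike (correlations of deviations -0.52 to 0.29, 3 of 9 above 0.1), so no block was used, and no 2 libraries were duplicates.

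Counts per library are given for tested genes of the drug, bile and sterol lists and for ABC genes with an unadjusted p under 0.05 in at least 1 comparison. ABCB6, ABCB10, ABCD2, ABCE1, ABCA4 and ABCA8 were added after their values were seen. The genes and lists were chosen with earlier results of these data known. Some genes are counted in totals but not reported here by name. The scripts were tested on simulated data.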

Additional observations from a re-analysis of the deposited data

How the results depend on the processing

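Counts of ABC genes below are at an unadjusted p under 0.05 unless said otherwise. With the fold change threshold, the reported fit of all 9 libraries called 2.42% of all genes for EMX1-FL against vector control. It called 2.5% for EMX1-X1 against vector control and 1.42% for EMX1-FL against EMX1-X1. For the other fits the shares with this threshold are not given, so their counts with it have no background of their own. With RLE factors they were as reported, and with DESeq2 EMX1-FL against EMX1-X1 gave 2, next to 9.11% of all genes. Limma on log2(TPM + 1) gave 1 for EMX1-FL and 4 for EMX1-X1, both against vector control, next to 6.29% and 9.44% of all genes. It gave 0 for EMX1-FL with the fold change threshold. Limma on log2(TPM + 0.1) gave 4 for EMX1-X1 against vector control, next to 9.5% of all genes. Without a filter, the count was 5 for EMX1-X1 against vector control and 5 between the isoforms (EMX1-FL against EMX1-X1). The shares over all genes were 7.34% and 7.49%. With the fold change threshold the unfiltered count was 2 for EMX1-FL against vector control and 1 for EMX1-FL against EMX1-X1. At least 10 counts in every library gave 1 and, with the fold change, 0 for EMX1-FL against vector control, and 3 for EMX1-FL against EMX1-X1. Shares of all genes at the unadjusted threshold were 5.67% and 8.31%. A fit of just the 6 libraries compared gave 1 and, with the fold change, 0 for EMX1-FL against vector control, 5 for EMX1-X1 and 0 between the isoforms. Over all genes the unadjusted shares in these fits were 4.54%, 13.2% and 4.43%. Blocked by replicate number, the count was 0 for EMX1-X1 against vector control, 0 between the isoforms and 2 for EMX1-FL against vector control. The shares of all genes there were 5.23%, 4.04% and 3.87%. The cluster of libraries as a covariate gave 4 for EMX1-FL against vector control and 2 between the isoforms, next to 15.1% and 12.9% of all genes. Just the 5 libraries of cluster A, chosen after seeing the data, gave 10 for EMX1-FL against vector control, next to 25.2% of all genes. With the fold change threshold this fit gave 2, and at an adjusted p under 0.05 it gave 4, next to 10.5% of all genes. In that fit EMX1-X1 has a lone library, assumed to vary like the others, so its counts are not given.

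Leaving out 1 library gave 1 to 7 for EMX1-FL against vector control, 0 to 10 for EMX1-X1 against vector control and 0 to 12 for EMX1-FL against EMX1-X1. The share over all genes in these fits ran from 4.23% to 16.4%, 3.35% to 17.1% and 2.03% to 34.7%. With the fold change threshold the counts of ABC genes were 0 to 2, 0 to 1 and 0 to 1. At an adjusted p under 0.05 they were 0, 0 and 0 to 1. The share over all genes at that threshold ran from 0.0052% to 0.563%, 0.0052% to 0.0313% and 0% to 6.05%. Of 617 alternative log2 fold changes of 11 named ABC genes, 0 reversed with an unadjusted p under 0.05 on either side, 28 lost that threshold, 17 gained it and 29 changed sign without it. ABCA13 and ABCG2 could not be fitted where a filter left them out. The TPM recomputed from counts and lengths moved none of the 45 baseline levels by more than their SD. The causes of these changes were not tested, and genes with few counts, among them ABCA13 and ABCG2, are limited by depth.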
